A study of Homo sapiens with 4 samples.

Results

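The BCL2 family sets whether a cell under stress opens the outer membrane of its mitochondria and dies, and its genes were followed here in glioblastoma cells with and without knockdown of the transcription factor gene *FLI1*. The 10 members were a named list, *BCL2*, *BCL2L1*, *BCL2L2*, *MCL1*, *BAX*, *BAK1*, *BID*, *BCL2L11*, *BAD* and *BNIP2*, out of 46660 gene identifiers in the count table. Each member's estimated read counts were summed over its linear RNAs and scaled by TMM, which assumes that most genes do not change, to CPM, a count corrected for the size of the library. All 10 members had counts in all 4 libraries, from 67 for *BCL2* in U87MG control cells to 9642 for *MCL1* in U251MG shFLI1 cells, and all 10 passed the filters on low counts.

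U87MG and U251MG are established human glioblastoma lines. In each line the control group carried the empty pGreen lentiviral vector (titled shControl) and the shFLI1 group carried lentiviral shRNA against *FLI1*. The labels name 2 shRNAs. Cells of both groups were infected in the presence of polybrene and selected with puromycin. The study's methods describe the survivors as a mixed stable population, used there for RT-qPCR and western blots. Its RNA-seq methods do not say whether the libraries came from that population. There was 1 library per group in each cell line. Differences within a line therefore had no replicate check, and their 95% intervals (Clopper-Pearson, from the read proportions) cover counting error only. Where reads share a PCR origin, even these are too narrow.

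In textbook terms, the pro-survival proteins encoded by *BCL2*, *BCL2L1* (Bcl-xL), *BCL2L2* (Bcl-w) and *MCL1* hold the effectors *BAX* and *BAK1* in check. When *BAX* or *BAK1* is released, it assembles into pores that let cytochrome c escape and start the caspase cascade. The BH3-only proteins *BID*, *BCL2L11* (Bim) and *BAD* carry the death signal: Bim and truncated Bid can engage the effectors directly, whereas *BAD* occupies the pro-survival proteins. *BNIP2* encodes a protein that binds BCL2 but has no settled side, and it was placed in neither group. Much of the control over these proteins lies in splicing, phosphorylation, cleavage and protein turnover, which RNA levels do not show.

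FLI1 is an ETS factor, a family that recognises a GGAA core, and the *BCL2* promoter served the study as a positive control for FLI1 binding. The *BCL2* windows are therefore shown first, and then the upstream sequence of *BAK1* and *BNIP2*, the members with the lowest and the highest fitted change after knockdown. Sequences are from RefSeq on GRCh38.p14, are written 5′ to 3′ on the strand of the gene, and have in capitals every GGAA or its reverse complement TTCC. *BCL2*, *BAK1* and *BNIP2* all lie on the minus strand. The *BCL2* windows span chr18:63319849-63319878, with a core starting 96 bases before the start site, and chr18:63319801-63319830, with cores at 48 and 39 bases before it.

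BCL2 at 96 bases: ggtggggtgcagcGGAAgagggggtccagg

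BCL2 at 48 and 39 bases: gtcatcctttttaGGAAaagagGGAAaaaa

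The 250 bases upstream of *BAK1* (chr6:33580277-33580526) held the core 138 and 85 bases before the start site, and those upstream of *BNIP2* (chr15:59689321-59689570) held it 184 bases before the start and, as TTCC, 17 bases before it. A further *BNIP2* promoter (chr15:59688927-59689176), not printed, held GGAA or TTCC 218, 159, 103 and 46 bases before its own start.

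BAK1 upstream: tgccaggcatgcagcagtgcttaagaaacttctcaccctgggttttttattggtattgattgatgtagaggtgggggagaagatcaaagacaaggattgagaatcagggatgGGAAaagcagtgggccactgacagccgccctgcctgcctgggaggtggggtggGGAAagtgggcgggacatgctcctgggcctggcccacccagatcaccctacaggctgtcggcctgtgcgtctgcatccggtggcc

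BNIP2 upstream: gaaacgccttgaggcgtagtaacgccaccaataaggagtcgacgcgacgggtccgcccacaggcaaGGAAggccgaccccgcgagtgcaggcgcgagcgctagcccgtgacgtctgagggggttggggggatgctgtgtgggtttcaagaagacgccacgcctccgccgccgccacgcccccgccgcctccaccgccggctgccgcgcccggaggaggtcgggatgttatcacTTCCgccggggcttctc

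The core was found in the upstream 250 bases of 12 of the 15 RefSeq promoters listed for 8 of the members, with none in the promoters of *BAX* and *BCL2L11*. Among all 35116 promoters of that length, 92.7% held it on either strand, with a median of 3 matches, so its presence does not set the members apart. The longer ETS site CCGGAAGT, which contains the core, was in 0 of the 15 member promoters and in 3.42% of all promoters. These letters are a description of the windows and not evidence of binding. *MCL1* and *BCL2L2* promoters were not analysed here.

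Total counts per library were 12229780 and 21250153 for U87MG control and shFLI1, and 18108612 and 28891055 for U251MG. The targeted gene fell in both lines. *FLI1* had 9.34 CPM in U87MG control and 2.34 in shFLI1, and 12.1 and 3.71 CPM in U251MG, a shared log2 change of -1.85 (SE 0.251, adjusted p = 0.00689 by edgeR's quasi-likelihood test). The glioma markers *GFAP*, *NES*, *VIM*, *SOX2* and *CD44* summed to between 5631 and 9187 CPM. Of 8 markers of leukocytes, endothelium, neurons and epithelium, 6 were in the table and summed to between 2.16 and 12.2 CPM, with the leukocyte marker *PTPRC* at 0 counts in both U87MG libraries and at 1 and 5 counts in U251MG. The macrophage marker *CD68* made up most of that sum in the control libraries and was lower in shFLI1 cells (4.11 to 0.540 CPM in U87MG, 9.14 to 0.468 in U251MG), and *GFAP* was higher (634 to 1587 CPM in U87MG, 20.4 to 93.8 in U251MG). Their part in the members' values was not tested.

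To compare the members with one another, the authors' FPKM, a level per length of RNA, was summed over the RNAs of each gene. *BAX* was the most abundant member in all 4 libraries and *BCL2* the least. *BAX* stood at 131.4 and 129.5 FPKM in U87MG control and shFLI1 and at 136.4 and 145.9 in U251MG. *BCL2* stood at 1.21, 1.56, 1.09 and 0.90 FPKM in the same order. The ratio of the highest to the lowest member was between 83.0 and 162 in a single library.

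Among the pro-survival members, transcripts of *MCL1* and *BCL2L1* made up nearly the whole sum. *MCL1*, which encodes a short-lived protein, had 52.3, 56.9, 96.0 and 90.6 FPKM in U87MG control, U87MG shFLI1, U251MG control and U251MG shFLI1. *BCL2L1* had 47.1, 47.6, 57.2 and 47.5 FPKM in that order, and *BCL2L2* had 9.28, 10.3, 6.94 and 7.23. *BCL2* itself was between 0.616% and 1.34% of the summed pro-survival FPKM, against 47.6% to 62.0% for *MCL1*. *MCL1* exceeded *BCL2* by 43.2 and 36.5 times in U87MG control and shFLI1, and by 88.1 and 100.7 times in U251MG.

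The effector *BAK1* was well below *BAX*, at 22.8 and 21.4 FPKM in U87MG control and shFLI1 and at 25.2 and 17.05 in U251MG. *BAX* over *BAK1* was 5.75, 6.06, 5.42 and 8.56 in the 4 libraries, highest in U251MG shFLI1 cells. Of the BH3-only members, *BAD* was the most abundant at 67.8, 64.8, 80.3 and 70.6 FPKM, followed by *BID* at 16.7, 19.1, 16.1 and 17.45. *BCL2L11* was the scarcest, at 3.28, 3.20, 3.52 and 4.90 FPKM. *BNIP2* had 9.0, 14.4, 14.1 and 12.5 FPKM, but short RNAs that carry few counts weigh on this value. Its curated mRNAs held 59.8% of its FPKM in U251MG control and 98.4% in U251MG shFLI1, and on those mRNAs alone it had 7.88, 10.9, 8.43 and 12.3 FPKM.

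Read over the 4 libraries, the order of the levels per length was *BAX*, then *BAD* with *MCL1*, *BCL2L1*, *BAK1* with *BID*, *BNIP2* with *BCL2L2*, *BCL2L11* and last *BCL2*. The ranges of *BAD* and *MCL1* overlapped, as did those of *BAK1* and *BID*, and of *BNIP2* and *BCL2L2*, so these neighbours have no fixed order. Across libraries the ranges of *MCL1* and *BCL2L1* overlapped too, but *MCL1* was above *BCL2L1* in each of the 4, by 1.11 to 1.91 times. *BAX*, *BCL2L11* and *BCL2* did not overlap with their neighbours.

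**Figure D1:**
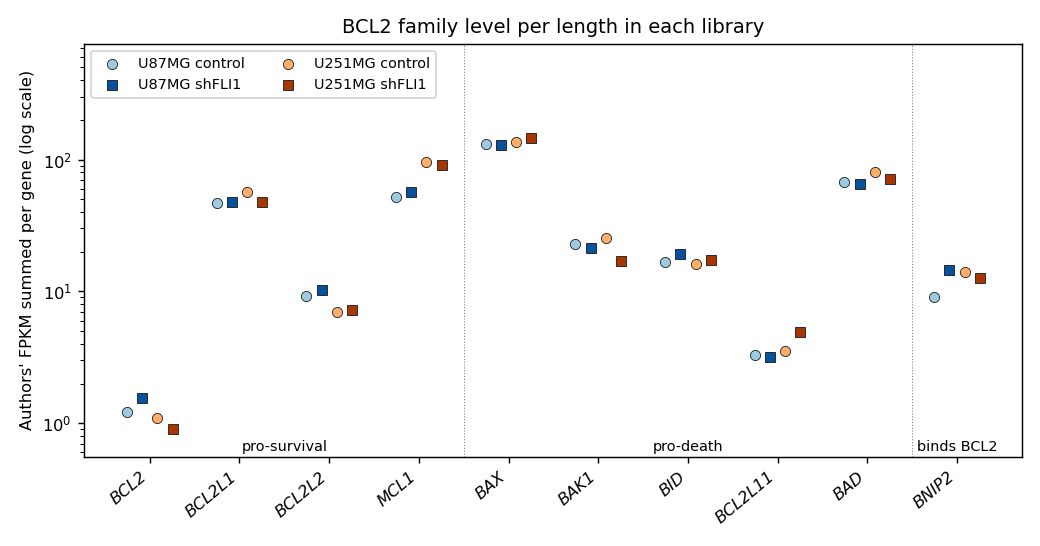
Level per length (authors' FPKM summed per gene, log scale) of each member in each library, with circles for control, squares for shFLI1, blue for U87MG and orange for U251MG, 1 point per library. *BAX* is highest at 129.5 to 145.9 FPKM and *BCL2* lowest at 0.90 to 1.56 FPKM, and the 4 points of most members lie close together relative to the distance between members.

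The question of the knockdown comparison is whether the pro-survival and pro-death members moved apart when *FLI1* was reduced. No member changed by 2-fold in either line: 0 of 10 passed in U87MG, where 11.4% of all 17355 genes tested did, and 0 of 10 in U251MG, where 8.17% of 18222 did. All 10 counting intervals lay within 2-fold in both lines. At 1.5-fold, 0 members passed in U87MG (20.3% of all genes) and 1, *BAK1*, was lower in U251MG (15.4% of all genes either way, 7.26% lower). The median log2 change of the members was -0.10 in both lines, beside 0.06 over all genes in U87MG and 0.04 in U251MG.

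Smaller differences passed counting error in several members. In U87MG the interval excluded 0 for 1 higher and 4 lower members, beside 50.1% of all genes (26.7% higher and 23.3% lower). In U251MG it did so for 2 higher and 5 lower members, beside 47.8% of all genes (24.6% higher and 23.1% lower). The interval was off 0 in both lines and on the same side for *BCL2L1*, *BAK1* and *BAD*, which were lower (12.2% of the 16384 genes tested in both lines), and for *BNIP2*, which was higher (11.8%). Scaling to total counts in place of TMM raised the median of all genes by 0.16 in U87MG and by 0.07 in U251MG. Under it 2 members were higher in U87MG, *MCL1* and *BNIP2*, and 0 were lower (40.3% and 14% of all genes), so that all 4 lower values in U87MG were within counting error, with *BAX* at -0.06, *BAK1* at -0.09, *BAD* at -0.05 and *BCL2L1* at 0.006. In U251MG 2 members were higher and 4 lower (31.3% and 17.7% of all genes), with *BCL2* no longer among the lower. *BNIP2* was still higher in both lines, and 0 members were lower in both.

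*BCL2*, the founding pro-survival gene and the one whose promoter the study used for FLI1 binding, had 67 and 126 counts in U87MG control and shFLI1 and 109 and 137 in U251MG. That is 5.85 and 5.67 CPM in U87MG, a log2 change of -0.05 (95% interval -0.49 to 0.40). In U251MG it went from 6.11 to 4.58 CPM, 74.8% of control, a log2 change of -0.41 (-0.79 to -0.04). With so few counts its intervals were the widest of the members.

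*BCL2L1* had 113.6 and 102.1 CPM in U87MG and 129.9 and 103.3 CPM in U251MG, where it was at 79.5% of control. Its log2 change was -0.15 (-0.25 to -0.06) in U87MG and -0.33 (-0.41 to -0.25) in U251MG. *MCL1* had 206.1 and 201.2 CPM in U87MG, within counting error by TMM (0.13 with an interval of 0.05 to 0.20 when scaled to total counts), and 359.5 and 322.0 CPM in U251MG, a log2 change of -0.16 (-0.20 to -0.11). *BCL2L2* was almost level, with 32.5 and 32.3 CPM in U87MG and 23.1 and 22.8 CPM in U251MG.

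Of the effectors, *BAK1* showed the largest difference of any member. It had 46.6 CPM in U87MG control and 39.3 in shFLI1, a log2 change of -0.25 (-0.40 to -0.09). In U251MG it had 48.8 CPM in control and 31.4 in shFLI1, 64.3% of control and a log2 change of -0.64 (-0.77 to -0.50). *BAX* had 83.3 and 71.5 CPM in U87MG, a log2 change of -0.22 (-0.34 to -0.10), and 80.4 and 78.3 CPM in U251MG, where the interval of -0.13 to 0.06 included 0. *BAK1* had the lower value of the effectors in both lines, but in U87MG their counting intervals overlapped. Scaled to total counts, the U87MG intervals of *BAK1* and *BAX* both included 0.

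The BH3-only members went separate ways. *BAD*, which is silenced by phosphorylation downstream of growth factors, was lower in both lines, with 47.7 and 41.2 CPM in U87MG and 53.7 and 45.2 CPM in U251MG, or 86.4% and 84.1% of control, within counting error in U87MG when scaled to total counts. *BID*, the substrate through which caspase-8 reaches the mitochondria, stayed within counting error, with 34.6 and 34.1 CPM in U87MG and 32.4 and 33.7 CPM in U251MG. *BCL2L11*, a target of FOXO factors, had 13.2 and 11.7 CPM in U87MG, a log2 change of -0.17 (-0.46 to 0.13). In U251MG it had 16.4 and 20.5 CPM, 125.0% of control and a log2 change of 0.32 (0.12 to 0.53). *BCL2L11* was the only pro-death member with an interval above 0 in either line, and its intervals in the lines overlap narrowly.

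*BNIP2* was the only member above control beyond counting error in both lines. It had 570 and 1402 counts in U87MG, or 49.8 and 63.0 CPM, and 947 and 2092 counts in U251MG, or 53.1 and 69.9 CPM. These are log2 changes of 0.34 (0.20 to 0.48) and 0.39 (0.28 to 0.51), and 126.6% and 131.5% of control. On the authors' FPKM the U251MG direction was the opposite, at 14.1 and 12.5 FPKM, and on its curated mRNAs alone it was again higher in shFLI1.

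**Figure D2:**
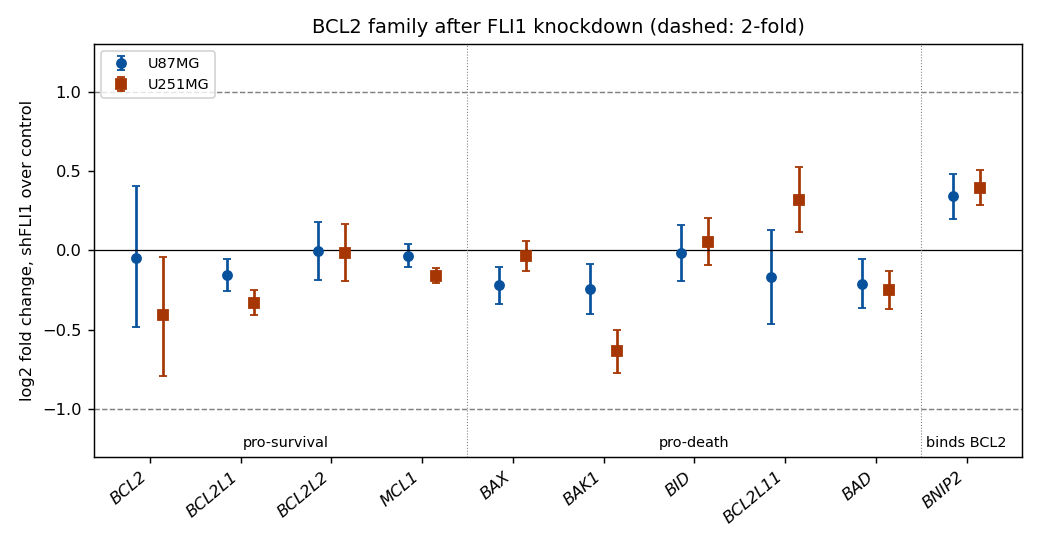
Log2 change (shFLI1 over control, TMM-scaled CPM) of each member in U87MG (blue circles) and U251MG (orange squares), 1 library per group, where bars are 95% counting intervals and dashed lines mark 2-fold. All bars lie inside the dashed lines. *BAK1* in U251MG is the lowest point at -0.64, and *BNIP2* is above 0 in both lines.

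The only replicated contrast takes the cell lines as replicates of the knockdown, with cell line as a block, and so asks for a change shared by both. By edgeR's quasi-likelihood test 0 of 10 members passed an adjusted p of 0.05, where 3.08% of 16649 genes did (0.931% higher and 2.14% lower), and 2 of 10 had an unadjusted p below 0.05 (16.5% of all genes). DESeq2 called 0 of 10 as well. The libraries share only their line and group, so the residual spread rests on 1 degree of freedom plus 7.76 borrowed across genes.

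These 2 members were *BAK1*, with a shared log2 change of -0.46 (SE 0.155, 95% interval -0.81 to -0.11, edgeR adjusted p = 0.178), and *BNIP2*, with 0.35 (SE 0.139, 0.04 to 0.67, edgeR adjusted p = 0.248). Both went the same way in 2 of 2 cell lines. Neither passed under any of 9 alternative fits, with adjusted p from 0.165 to 1.00 for *BAK1* and from 0.138 to 1.00 for *BNIP2*.

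The remaining members had shared log2 changes from -0.26 to 0.07, with wide intervals that all included 0. Among pro-survival members these were -0.25 (-0.85 to 0.34) for *BCL2*, -0.26 (-0.57 to 0.05) for *BCL2L1*, -0.03 (-0.37 to 0.31) for *BCL2L2* and -0.11 (-0.46 to 0.23) for *MCL1*. Among pro-death members they were -0.14 (-0.46 to 0.17) for *BAX*, 0.00 (-0.33 to 0.34) for *BID*, 0.07 (-0.37 to 0.52) for *BCL2L11* and -0.25 (-0.56 to 0.07) for *BAD*. Adjusted p for these ran from 0.398 to 0.994. All 10 intervals lay within 2-fold, which bounds the shared change of each member but does not show that it was unchanged.

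Set against each other, the medians of the sides did not separate in a common direction. In U87MG the median log2 change was -0.04 for the 4 pro-survival members and -0.21 for the 5 pro-death members, a difference of 0.17 in favour of pro-survival. In U251MG the medians were -0.24 and -0.04, a difference of -0.21, in favour of pro-death. These are medians over few genes, given as a description with no test. In levels per length the summed pro-survival FPKM over the summed pro-death FPKM was 0.454 in U87MG control and 0.489 in shFLI1, and 0.617 in U251MG control and 0.571 in shFLI1, so the ratio moved up in U87MG and down in U251MG. Single pairs differed in this. *MCL1* over *BCL2L11* was 15.95 in U87MG control and 17.8 in shFLI1, and 27.3 and 18.5 in U251MG. *MCL1* over *BAK1* was higher with shFLI1 in both lines, at 2.29 and 2.66 in U87MG and at 3.81 and 5.31 in U251MG, as was *BCL2L1* over *BAK1*, at 2.06 and 2.23 and at 2.27 and 2.785. Both pairs share the lower *BAK1* value. Over *BAX*, *MCL1* was higher with shFLI1 in U87MG (0.40 and 0.44) and lower in U251MG (0.70 and 0.62). The same held for *BCL2L1* over *BAX*, at 0.36 and 0.37 in U87MG and at 0.42 and 0.33 in U251MG. No interval was computed for a ratio. In U87MG the counting intervals of the members of each named pair overlapped, and in U251MG only those of *MCL1* and *BAX* did. The U87MG log2 change of the count ratio was 0.09 for *BCL2L1* over *BAK1* and 0.07 over *BAX*. For *MCL1* it was 0.21 over *BAK1* and 0.19 over *BAX*. The U87MG directions are therefore a description.

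The levels of the members were also compared between the cell lines. In the same edgeR fit, with control or shFLI1 as the covariate, 2 of 10 members differed between lines at an adjusted p below 0.05, where 18.7% of all genes did (8.26% higher in U87MG and 10.4% higher in U251MG). *MCL1* was lower in U87MG than in U251MG, with a log2 difference of -0.67 (SE 0.153, interval -1.02 to -0.32, edgeR adjusted p = 0.0174). *BCL2L2* was higher in U87MG, with 0.57 (SE 0.150, 0.23 to 0.91, edgeR adjusted p = 0.0305). The *BCL2L2* call was lost under 5 of 9 alternatives, with adjusted p from 0.0290 to 0.160 over all of them, and the *MCL1* call only without the group covariate. *BCL2L2* shares exons with a read-through gene, so that its counts may be split between both.

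The members' RNAs were then examined for the splice forms that change a protein's side. Counts of single RNAs are estimates and their split is less certain than the gene sum. Bcl-xS, the short form of *BCL2L1* that promotes death (NM_001191), took 10.7% of the gene's counts (9.06 to 12.5) in U87MG control and 12.6% (11.3 to 14.03) in shFLI1. In U251MG it took 12.9% (11.5 to 14.3) in control and 9.73% (8.71 to 10.8) in shFLI1. The share was thus higher with shFLI1 in U87MG, where the intervals overlap, and lower in U251MG, where they do not. These intervals leave out the uncertainty of the split. Another *BCL2L1* RNA, NM_001317921, went from 4.77% in U251MG control to 11.4% in shFLI1, so no splice change is read from these shares. The short RNA of *MCL1*, which lacks the membrane anchor (NM_182763), was rare throughout. It had 20 of 2360 counts (0.848%) in U87MG control and 15 of 4475 (0.335%) in shFLI1, and 28 of 6409 (0.437%) and 101 of 9642 (1.05%) in U251MG. The main long form (NM_021960) thus made up between 99.0% and 99.7% of *MCL1* counts.

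For *BCL2* the main RNA (NM_000633) held 83.6%, 69.1%, 87.2% and 86.1% of counts in U87MG control, U87MG shFLI1, U251MG control and U251MG shFLI1, and for *BNIP2* NM_004330 held 83.0%, 81.1%, 72.5% and 81.0%. The *BAX* RNA NM_138761 held 58.3%, 57.7%, 51.4% and 51.5%, which differed by more between the lines than between the groups of a line. *BCL2L11* was divided over 26 RNAs. Its NM_138621 held 25.2%, 9.96%, 22.3% and 22.2%, while another, NM_138623, had 0 estimated counts in U251MG control and 105.7 in shFLI1, so no splice change is read from them.

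**Figure D3:**
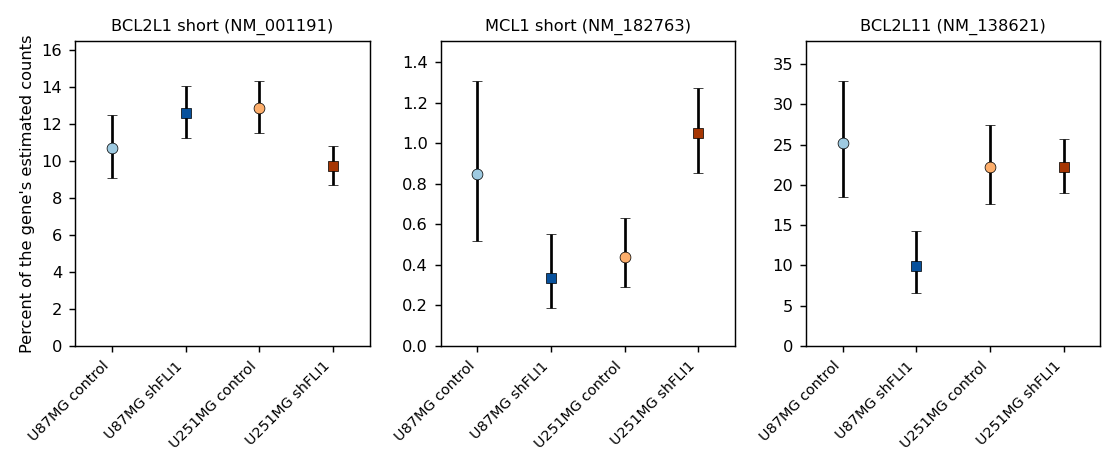
Share of the gene's estimated counts (percent, each panel with its own scale from 0) held by the short RNA of *BCL2L1*, the short RNA of *MCL1* and NM_138621 of *BCL2L11* in each of the 4 libraries, where bars are 95% counting intervals and colours mark cell line and group. The *BCL2L1* short share is 12.9% in U251MG control and 9.73% in U251MG shFLI1, and the *MCL1* short share stays at or below 1.05%.

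Around the members, 15 other family genes were examined, of which 14 were in the table and 10 could be tested in U87MG and 11 in U251MG. Past 2-fold there were 0 higher and 1 lower in U87MG (7.21% and 4.19% of all genes), and 1 higher and 1 lower in U251MG (4.17% and 4% of all genes). In the shared test 0 were higher and 1 was lower (0.931% and 2.14% of all genes). *PMAIP1* (NOXA), the BH3-only protein that binds MCL1 and hastens its degradation, was the gene past the shared test. It had 39.3 and 21.6 CPM in U87MG and 40.8 and 19.2 CPM in U251MG, a shared log2 change of -0.99 (SE 0.153, edgeR adjusted p = 0.0126), and lost the call only when the cell line was left out of the fit (adjusted p = 0.719).

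*BMF*, a BH3-only protein tied to the actin cytoskeleton, moved in opposite directions. It had 71 and 31 counts in U87MG, or 6.20 and 1.39 CPM, a log2 change of -2.08 (-2.81 to -1.53). It had 33 and 175 counts in U251MG, or 1.85 and 5.84 CPM, a log2 change of 1.61 (1.12 to 2.24). Intervals off 0 on opposite sides were seen in 7.29% of the genes tested in both lines. Each value rests on 1 library per group, and the shared log2 change was -0.19 (edgeR adjusted p = 0.935).

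Of the mitochondrial death pathway, 12 genes are reported here, all 12 of which were tested, among them the channel *VDAC1*, cytochrome c (*CYCS*), *CASP9* and the caspase inhibitor *XIAP*. The list also holds *CASP8*, whose protein acts upstream of *BID*. Past 2-fold there were 0 in U87MG and 0 in U251MG, beside 11.4% and 8.17% of all genes. By edgeR 0 passed the shared test (3.08% of all genes) and 0 had an unadjusted p below 0.05 (16.5%). *APAF1*, the scaffold of the apoptosome, had 31.8 and 27.9 CPM in U87MG and 34.5 and 35.4 CPM in U251MG.

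Of 16 regulators of the members, all 16 were tested and 0 passed 2-fold or the shared test by edgeR, beside 11.4% and 8.17% of all genes past 2-fold in U87MG and U251MG and 3.08% past the shared test. At an unadjusted p below 0.05 there were 3 (16.5% of all genes), and the lowest adjusted p was 0.127. *FBXW7*, a ubiquitin ligase subunit for MCL1, had 15.6 and 28.6 CPM in U87MG and 21.4 and 27.1 CPM in U251MG. *FOXO3*, which activates *BCL2L11*, had 104.4 and 84.9 CPM in U87MG and 148.2 and 155.3 CPM in U251MG.

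**Figure D4:**
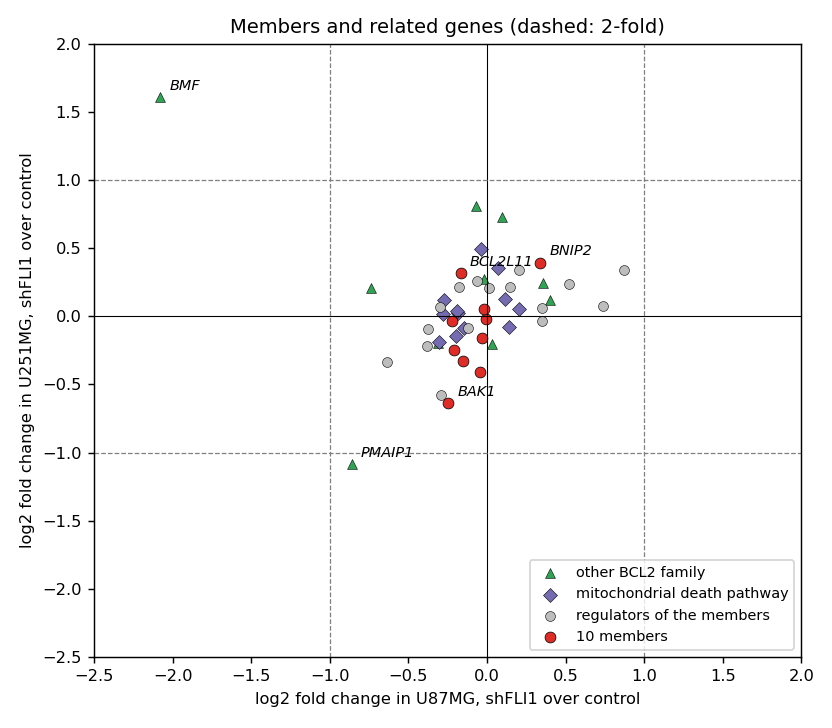
Log2 change (shFLI1 over control) in U87MG on the horizontal axis and in U251MG on the vertical axis for the 10 members (red circles), other family genes (green triangles), the death pathway (purple diamonds) and regulators (grey circles), 1 point per gene, with dashed lines at 2-fold. The members lie within the dashed square, *BMF* lies apart at -2.08 and 1.61, and *PMAIP1* is lower in both lines.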

How the data were processed

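RNA-seq was made from 4 libraries, control and shFLI1 cells of U87MG and U251MG. The authors used HISAT2 for alignment to GRCh38 and StringTie for the FPKM deposited for each RNA. The deposited table also gives estimated counts per RNA, whose tool is not given in the sources used here. A further 10 value columns (TPM and means) and 31346 circular RNAs were not used. The kit named in the labels is not the one in the study's methods. Counts of 185042 linear RNAs were summed by Entrez identifier and rounded, and FPKM was summed likewise. A gene was tested within a line with at least 10 counts in 1 library. Fold changes used TMM over all genes with a prior count of 2. Changes shared by both lines and differences between lines were fitted with edgeR 4.0.16 (filterByExpr, TMM on genes kept, quasi-likelihood test, Benjamini-Hochberg over all genes) in R 4.3.3, and edgeR's shared values can therefore differ slightly from the mean of the lines. DESeq2 1.42.0 was an alternative. The labels do not say that libraries are separate cultures, and p-values then measure only the spread between these libraries. The members and lists were chosen with earlier results of these data known. All members, the listed genes past 2-fold or the shared test, and RNAs with at least 5% of a member's counts were eligible to be named. *APAF1*, *FBXW7*, *FOXO3*, the other genes given for a list and the short *MCL1* RNA were added as examples after their values were seen. Some genes of the death pathway are not reported here.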

Additional observations from a re-analysis of the deposited data

Results flagged for a closer look

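The following results had opposite signs in the cell lines, and the difference was not tested, since each line had 1 library per group. *BCL2L11* was below control in U87MG and above it in U251MG, a difference in log2 change of 0.487 (U251MG minus U87MG). *BID* had the same pattern with a difference of only 0.0731, and both of its counting intervals included 0. *BMF* had the widest difference, 3.69, with counting intervals off 0 in both lines, which 7.29% of the genes tested in both lines also showed. The median change of pro-survival minus pro-death members differed by -0.38, being positive in U87MG and negative in U251MG.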

How the results depend on the processing

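Leaving out a replicate was not possible, because each group had 1 library per line. *BCL2L1* in U87MG changed sign, to 0.006 with total counts and, by FPKM, to 0.0155 (pseudocount 1) and 0.0158 (pseudocount 0.1). *BNIP2* in U251MG changed, by FPKM, to -0.16 (pseudocount 1) and -0.17 (pseudocount 0.1), where short RNAs hold much of its control FPKM. With a 1.5-fold threshold 1 member passed in U251MG. The number of members that differed between cell lines was 2, and it was 1 with TMM from all genes (chosen after seeing the data), total counts, DESeq2's Wald test or a filter of any 1 count, and 0 when the group was left out of the fit, where the pairing of libraries is lost. With the cell line as a replicate block, 0 members passed the shared test. Without the block 0 passed as well, but there even *FLI1* lost its call (edgeR adjusted p = 0.745), so that fit is no check on the members. Of the comparisons' counts and balances, 50 were kept and 6 moved. All balances were among those kept, but the shift allowed for them, set by the widest counting interval of a member, was larger than the balances themselves. Log2 changes within a line were followed over the settings for the members, *PMAIP1*, *BMF* and *FLI1*. Of these values 180 stayed, 23 left their TMM counting interval and 5 were the sign changes above. By FPKM (pseudocount 1) *BAX* in U251MG went from -0.04 to 0.10, and *BID* in U87MG from -0.02 to 0.18. *BCL2* in U87MG stayed inside its wide interval, at -0.37 on curated mRNAs and 0.34 by FPKM (pseudocount 0.1). Pro-survival minus pro-death kept its sign in each line, from 0.112 to 0.171 in U87MG and from -0.265 to -0.119 in U251MG. Library scaling shifts both sides of this difference alike, so the settings that change only the scaling could not move it and are no check on it. Depth limits *BCL2*, with 67 to 137 counts per library.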
